A study of Mus musculus with 18 samples.

Results

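*Ptch1*, *Gli1*, *Pth1r* and *Panx3* were examined in cartilage of the medial tibial plateau (MTP) of mouse knees after destabilisation of the medial meniscus (DMM), an operation that loosens the meniscus and leads to osteoarthritis. The genes were taken by name, as every probe that the annotation of the array assigns to them, which gave 7 probes of the 22999 measured and 4 of 11499 genes. RNA had been hybridised to Illumina mouse bead arrays, on which each probe is read as a fluorescence intensity. The values are log intensities whose base is not stated. They were taken as log2 from their range, so that a difference of 1 is read as a doubling. All animals were male C57Bl6/J mice, operated on the right knee at 10 weeks of age. The 6 groups were DMM cartilage from operated right knees and contralateral cartilage from unoperated left knees, each at 2, 4 and 8 weeks after surgery, when the mice were 12, 14 and 18 weeks old. Each of the 18 arrays held cartilage pooled from 8 knees, with n = 3 arrays per group. No sham-operated group was analysed here, both knees of a time point came from mice that had undergone surgery, and time after surgery cannot be told apart from age. As the tissue was measured in bulk, fewer cells of a type and less RNA per cell cannot be told apart.

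Maturing chondrocytes of the growth plate secrete Indian hedgehog, encoded by *Ihh*. Without this ligand its receptor patched 1, encoded by *Ptch1*, holds the membrane protein smoothened, encoded by *Smo*, inactive. Ligand binding frees smoothened, and the signal passes through the primary cilium to the Gli transcription factors. *Ptch1* and *Gli1* are themselves transcribed in response, so their RNA is used as a read-out of the pathway. Parathyroid hormone-related protein (PTHrP), encoded by *Pthlh*, is induced by Indian hedgehog and acts through the G protein-coupled receptor encoded by *Pth1r* to hold chondrocytes back from hypertrophy. *Panx3* encodes pannexin 3, a channel protein of prehypertrophic chondrocytes and osteoblasts that releases ATP and lets calcium pass. In articular cartilage both pathways are known for their part in keeping or losing the non-hypertrophic state.

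The sequence before the transcription start is shown for *Ptch1*, as the member known to be a direct target of Gli factors, and for the most downstream of the 3 promoter windows of *Pth1r*, as the member that differed at most time points. The RefSeq promoter table (GRCm38.p6) held 4 windows for 2 of the 4 genes, *Ptch1* and *Pth1r*. The windows run from 250 bases before the start site to 50 bases after it, and the 250 bases before it are printed 5′ to 3′, with matches to a GC box (GGGGCGGGG or its complement on the other strand) in capitals. *Ptch1* is shown from chr13:63565736-63565985 (minus strand) and *Pth1r* from chr9:110742611-110742860 (minus strand).
*Ptch1*: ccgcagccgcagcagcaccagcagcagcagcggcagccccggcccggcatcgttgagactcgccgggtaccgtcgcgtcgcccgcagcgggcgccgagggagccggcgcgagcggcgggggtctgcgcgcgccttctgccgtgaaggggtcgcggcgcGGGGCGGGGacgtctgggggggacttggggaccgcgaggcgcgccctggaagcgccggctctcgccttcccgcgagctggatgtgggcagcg
*Pth1r*: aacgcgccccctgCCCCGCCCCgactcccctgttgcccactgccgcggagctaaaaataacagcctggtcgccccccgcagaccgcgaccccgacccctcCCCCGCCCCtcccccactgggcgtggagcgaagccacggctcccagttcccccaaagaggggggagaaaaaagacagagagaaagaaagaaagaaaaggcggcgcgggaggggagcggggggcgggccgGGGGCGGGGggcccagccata
The *Ptch1* window had 1 GC box, at position -92 from the start site, and the *Pth1r* window shown had 3. The windows of *Pth1r* that are not shown had 0 each. Of 32851 mouse promoter windows 11.4% had at least 1. The letters GACCACCCA, a core Gli binding motif, were found on either strand in 0 of the 4 windows and in 0.253% of all windows. A RUNX motif (TGTGGT, in 16.8% of all windows) and a cyclic AMP response element (TGACGTCA, in 1.79%) were also found in 0 of the 4. The GC content was 76.3% for *Ptch1* and between 54.3% and 69.3% for the windows of *Pth1r*, against a median of 52.7%.

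At 2 weeks all 4 genes differed between DMM-operated and contralateral MTP cartilage. *Ptch1* and *Gli1* were down-regulated in the operated knees, and *Pth1r* and *Panx3* were up-regulated. At 4 weeks *Pth1r* was the only member past the threshold, and at 8 weeks none was. Calls rest on limma with an adjusted p under 0.05 over all probes, and each gene is represented by its brightest probe, the one with the highest mean over the 18 arrays. At that threshold 6.63% of all probes were called at 2 weeks, 0.639% at 4 weeks and 0% at 8 weeks (1993 probes at an unadjusted p under 0.05).

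**Figure D1:**
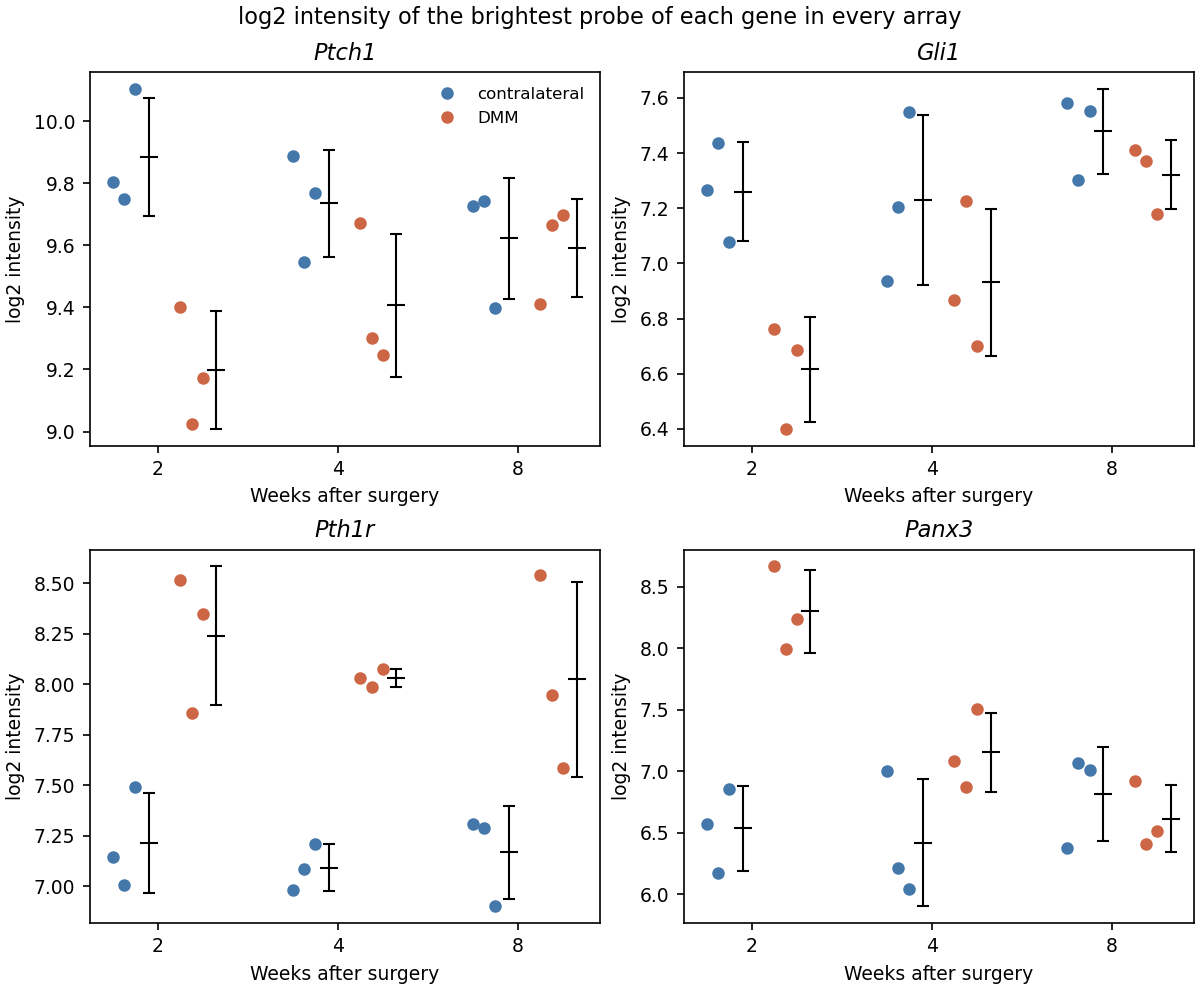
log2 intensity (vertical axis) of the brightest probe of *Ptch1*, *Gli1*, *Pth1r* and *Panx3* at 2, 4 and 8 weeks after surgery (horizontal axis). Each point is 1 array, blue for contralateral and orange for DMM cartilage, and the bars give the mean and SD of the 3 arrays of a group. The vertical axes differ between genes and do not start at 0. All 3 DMM arrays lie on 1 side of the contralateral arrays for every gene at 2 weeks, and at 4 and 8 weeks only for *Pth1r*. Of all probes 13.6% had the DMM arrays above and 13.4% below at 2 weeks. At 4 and 8 weeks 9.18% and 7.29% had them above.

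*Ptch1*, the receptor, was measured by 2 probes. With the brighter probe (ILMN_2460224) the contralateral arrays of week 2 read 9.80, 9.75 and 10.10 and the DMM arrays 9.40, 9.02 and 9.17. All DMM arrays lay below all contralateral arrays, as they did for 13.4% of all probes. The mean fell from 9.89 ± 0.19 to 9.20 ± 0.19 (SD, n = 3), a log2 difference of -0.69 (SE 0.15, adjusted p = 0.0239) or 1.61-fold lower. At 4 weeks the contralateral arrays read 9.89, 9.55 and 9.77 and the DMM arrays 9.67, 9.30 and 9.25. The groups overlapped through DMM replicate 1, and the difference of -0.33 (SE 0.16, adjusted p = 0.416) did not pass the threshold. At 8 weeks contralateral arrays at 9.73, 9.74 and 9.40 and DMM arrays at 9.41, 9.67 and 9.70 covered the same range (difference -0.03, 95% interval -0.42 to 0.35, adjusted p = 0.975). The call at 2 weeks ended without contralateral replicate 3 (adjusted p = 0.0589), DMM replicate 2 (0.120) or DMM replicate 3 (0.111), where the difference ran from -0.67 to -0.58.

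The second probe of *Ptch1* (ILMN_1248463) gave values between 7.16 and 7.81 in contralateral and between 6.69 and 7.13 in DMM cartilage at 2 weeks. Here too the DMM arrays lay below all contralateral arrays, as for 13.4% of all probes. The difference was -0.64 (SE 0.18, adjusted p = 0.0639). At 4 weeks it gave -0.70 (SE 0.31, adjusted p = 0.371), with contralateral replicate 2 at 8.81 against 7.24 and 7.51 for the others, and -0.23 without that array. At 8 weeks it gave -0.26 (SE 0.27, adjusted p = 0.824). Both probes pointed down at 2 and 4 weeks. At 8 weeks the brighter probe was at -0.03, and from -0.14 to 0.06 with 1 array left out, so its direction there is open. Over the 18 arrays they correlated at Pearson r = 0.52, and at r = 0.16 after each group mean was removed, a description over arrays that the probes share.

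*Gli1*, a transcription factor that activates Hedgehog target genes, was measured by 1 probe. At 2 weeks the contralateral arrays read 7.27, 7.44 and 7.08 and the DMM arrays 6.76, 6.40 and 6.68. Every DMM array was below every contralateral array, as for 13.4% of all probes. The mean fell from 7.26 ± 0.18 to 6.62 ± 0.19 (SD, n = 3), a difference of -0.64 (SE 0.15, adjusted p = 0.0296) or 1.56-fold lower. At 4 weeks the contralateral arrays read 6.93, 7.20 and 7.55 and the DMM arrays 6.87, 7.22 and 6.70, with DMM replicate 2 inside the contralateral range (difference -0.30, SE 0.19, adjusted p = 0.551). That difference was -0.45 without contralateral replicate 1 and -0.14 without contralateral replicate 3. At 8 weeks they read 7.58, 7.30 and 7.55 against 7.41, 7.37 and 7.18, which also overlapped (difference -0.16, SE 0.16, adjusted p = 0.816). The call at 2 weeks ended without contralateral replicate 1 (adjusted p = 0.0645) and without DMM replicate 1 (0.0594), 2 (0.142) or 3 (0.104), with differences from -0.72 to -0.54.

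*Pth1r*, the receptor of PTHrP, was measured by 3 probes. With the brightest (ILMN_2650356) the contralateral arrays of week 2 read 7.15, 7.01 and 7.49 and the DMM arrays 8.52, 7.86 and 8.35. The DMM arrays lay above all contralateral arrays, as for 13.6% of all probes. The mean rose from 7.22 ± 0.25 to 8.24 ± 0.34 (SD, n = 3), a difference of 1.03 (SE 0.19, adjusted p = 0.0108) or 2.04-fold higher. At 4 weeks the contralateral arrays read 6.98, 7.08 and 7.21 and the DMM arrays 8.03, 7.99 and 8.08, again apart, as for 9.18% of all probes. *Pth1r* rose by 0.94 there (SE 0.13, adjusted p = 0.0082), with the DMM arrays within 0.0904 of each other. At 8 weeks contralateral arrays at 7.31, 7.29 and 6.90 and DMM arrays at 8.54, 7.95 and 7.59 were apart as well, as for 7.29% of all probes. The difference of 0.86 (SE 0.25) had an unadjusted p of 0.00825 in limma and an adjusted p of 0.443, and its 95% interval ran from 0.29 to 1.43.

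The call of *Pth1r* at 2 weeks ended without DMM replicate 1 (0.89, adjusted p = 0.0520) or DMM replicate 3 (0.97, 0.0662), and that at 4 weeks without DMM replicate 3 (0.92, 0.0502). In 1 fit of all 18 arrays the adjusted p at 4 weeks was 0.0773. The other probes, ILMN_2850309 and ILMN_2635728, gave differences of 0.61 and 0.51 at 2 weeks (adjusted p = 0.148 and 0.123), of 0.42 and 0.37 at 4 weeks (0.349 and 0.308) and of 0.77 and 0.53 at 8 weeks (0.410 and 0.598). They pointed up at every time point, and neither was called at any single one. The groups overlapped at 2 and 4 weeks for ILMN_2850309 and at 2 and 8 weeks for ILMN_2635728. Their mean intensities over the 18 arrays were 6.44 and 6.42, against 7.63 for the brightest probe and a median of 6.53 over all probes. With the mean of the 3 probes in place of the brightest, *Pth1r* was not past the threshold at 2 weeks (0.72, adjusted p = 0.0655) or 4 weeks (0.58, adjusted p = 0.0731). Over the 18 arrays the probes correlated pairwise at r = 0.89, 0.74 and 0.72, and after removal of group means at r = 0.77, 0.36 and 0.35.

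*Panx3*, the channel gene, had 1 probe and the widest difference of the 4 genes. At 2 weeks the contralateral arrays read 6.57, 6.17 and 6.86 and the DMM arrays 8.67, 8.00 and 8.24. The highest contralateral array was more than 1 log2 unit below the lowest DMM array. Groups lay apart in this direction, by any distance, for 13.6% of all probes. The mean rose from 6.53 ± 0.34 to 8.30 ± 0.34 (SD, n = 3), a difference of 1.77 (SE 0.21, adjusted p = 0.00162) or 3.40-fold higher. At 4 weeks the contralateral arrays read 7.01, 6.21 and 6.04 and the DMM arrays 7.08, 6.87 and 7.51. Contralateral replicate 1 lay within the DMM range, and the difference of 0.73 (SE 0.24, adjusted p = 0.204) did not pass. Without that array it was 1.03 (adjusted p = 0.0744), and without contralateral replicate 3 it was 0.54 (adjusted p = 0.376). At 8 weeks contralateral arrays at 6.38, 7.07 and 7.01 and DMM arrays at 6.92, 6.41 and 6.51 overlapped throughout (difference -0.20, 95% interval -0.73 to 0.32, adjusted p = 0.840). The call at 2 weeks held in all 6 fits that left out 1 array, with adjusted p between 0.00048 and 0.0134.

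**Figure D2:**
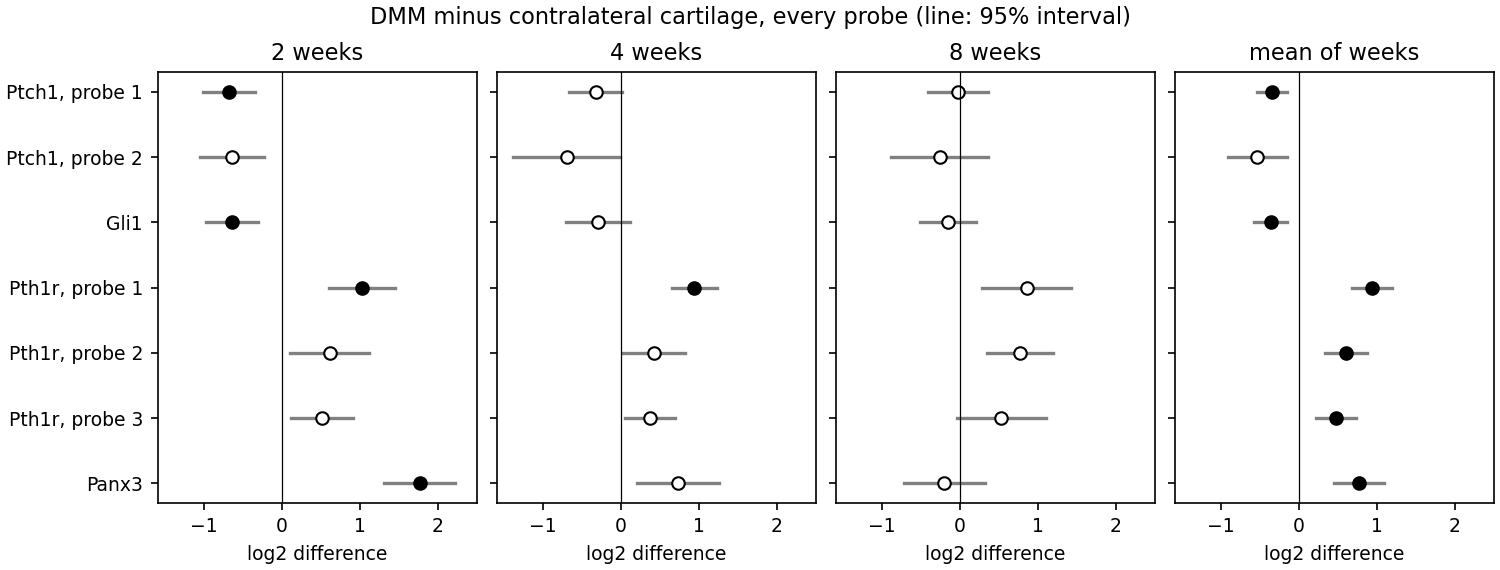
log2 difference, DMM minus contralateral (horizontal axes), for the 7 probes of the 4 genes at 2, 4 and 8 weeks and averaged over the 3 weeks. Points are limma estimates with 95% intervals as lines, filled where the adjusted p was under 0.05, and probe 1 of a gene is its brightest. *Panx3* runs from 1.77 at 2 weeks to -0.20 at 8 weeks, while the brightest probe of *Pth1r* stays between 0.86 and 1.03.

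The mean of the 3 weekly differences was tested in 1 fit of all 18 arrays, in which 9.95% of all probes were called. A call on this mean does not require a difference at every week. Weekly values ran from -0.69 at 2 weeks to -0.03 at 8 weeks for *Ptch1* and from -0.64 to -0.16 for *Gli1*. *Pth1r* had a mean difference of 0.94 (SE 0.12, adjusted p = 8.62e-05), and its other probes 0.60 (adjusted p = 0.00587) and 0.47 (adjusted p = 0.0185), so that all 3 passed. *Panx3* had 0.77 (SE 0.15, adjusted p = 0.00303), a mean over weekly values of unlike sign. *Ptch1* had -0.35 (SE 0.09, adjusted p = 0.0207) and its second probe -0.54 (adjusted p = 0.0719). *Gli1* had -0.37 (SE 0.10, adjusted p = 0.0237). The call of *Ptch1* ended without DMM replicate 2 of week 2 (adjusted p = 0.0517) or DMM replicate 3 of week 4 (0.0509). That of *Gli1* ended without either of those arrays (0.0588 and 0.0589) and without contralateral replicate 2 of week 2 (0.0521) or contralateral replicate 3 of week 4 (0.0503).

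Within DMM cartilage *Panx3* was the only member called between time points. From week 2 to week 4 it fell by 1.15 (SE 0.19, adjusted p = 0.00519) and from week 2 to week 8 it fell by 1.69 (SE 0.20, adjusted p = 0.0154), with no overlap between the arrays of the weeks compared. Of all probes 2.54% and 0.639% were called in these comparisons, and arrays lay below those of week 2 without overlap for 10.8% and 11.0%. The call from week 2 to week 8 ended without DMM replicate 1 (-1.50, adjusted p = 0.0540), 2 (-1.84, 0.0514) or 3 (-1.72, 0.119) of week 2. In the same DMM arrays markers of other cells were called higher at week 4 than at week 2. These were 7 of 8 of neutrophils (mean level 6.67 to 7.64 at week 2 and 9.68 to 9.77 at week 4). They were also 3 of 3 measured of erythroid cells (6.95 to 7.49 and 9.17 to 9.61) and 11 of 13 of skeletal muscle (5.99 to 6.77 and 7.62 to 7.87). At week 8 against week 2, 0 neutrophil, 0 erythroid and 2 muscle markers were called higher. All 8 neutrophil, 3 erythroid and 13 muscle markers measured had positive differences there, with medians of 1.09, 0.73 and 1.51. The levels at week 8 were 6.65 to 9.42, 7.92 to 8.09 and 7.13 to 8.32 for these markers. Their part in the differences between weeks was not tested. From week 4 to week 8 the difference of *Panx3* was -0.54 (SE 0.20, adjusted p = 0.381), where 0.0739% of probes were called. *Gli1* was 0.71 higher at week 8 than at week 2 (SE 0.15, unadjusted p = 0.000805, adjusted p = 0.0729 in limma). The arrays of those weeks did not overlap, as for 9.02% of probes with week 8 above, and the adjusted p was 0.0402 when only the brighter 11499 probes were tested. *Ptch1* was 0.39 higher (SE 0.15, adjusted p = 0.297). The brightest probe of *Pth1r* in DMM cartilage differed by -0.22 to -0.01 between weeks, with adjusted p of at least 0.600.

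In contralateral cartilage no member was called between any weeks, where 0.148% (4 against 2 weeks), 0% (8 against 2) and 0% (8 against 4) of probes were called, with 1660 and 1689 probes at an unadjusted p under 0.05 in the latter comparisons. *Ptch1* differed by -0.26 from week 2 to week 8 (SE 0.17, adjusted p = 0.740) and *Panx3* by 0.28 (SE 0.24, adjusted p = 0.795). *Gli1* differed by 0.22 (SE 0.16, adjusted p = 0.770) and *Pth1r* by -0.05 (SE 0.19, adjusted p = 0.963).

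Whether the DMM effect itself changed between weeks was tested as the difference of differences over all 18 arrays. No probe of the 22999 passed this test between any weeks (1250, 2419 and 1742 at an unadjusted p under 0.05 for week 2 to 4, 2 to 8 and 4 to 8). *Panx3* had a change from week 2 to week 8 of -1.97 (SE 0.37, unadjusted p = 4.46e-05), the eighth smallest p of all probes, with an adjusted p of 0.102 that 23 probes shared. Its changes were -1.03 from week 2 to 4 (adjusted p = 0.896) and -0.94 from week 4 to 8 (0.579). The effect on *Ptch1* changed by 0.65 from week 2 to 8 (SE 0.23, adjusted p = 0.346) and that on *Gli1* by 0.49 (SE 0.24, adjusted p = 0.497). For *Pth1r* it was -0.17, with a 95% interval of -0.80 to 0.46 (adjusted p = 0.871). Calls at 1 week and not at another are therefore not shown to differ between weeks for any of the 4 genes.

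Of 27 genes listed for the Hedgehog pathway 22 were analysed here, by the brightest probe of each. At 2 weeks 5 fell and 0 rose, where 3.16% of all genes fell. Apart from the members *Ptch1* and *Gli1*, 3 of 20 genes fell, namely *Smo*, *Gas1* and *Boc*. The median difference of the 22 genes was -0.14 against 0.01 for all genes, and 12 of them were negative. At 4 and 8 weeks 0 passed in either direction. Averaged over the weeks 7 fell and 0 rose, where 5.04% of all genes fell, and *Gli2* and *Ihh* were added to the former 5. The count at 2 weeks was 3 without contralateral replicate 1, 2 without DMM replicate 1 or 3, and 1 without DMM replicate 2. The averaged count was 4 without contralateral replicate 2 or DMM replicate 3 of week 2, 3 without DMM replicate 2 of week 2, and 2 without DMM replicate 3 of week 4. With array weights, with the mean of all probes, or without contralateral replicate 1 of week 4 or contralateral replicate 3 or DMM replicate 2 of week 8, 1 gene of the list rose on average.

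*Gas1* and *Boc* encode co-receptors that help patched bind the ligand. *Gas1* read 10.61, 10.33 and 10.46 in contralateral arrays of week 2 and 9.37, 9.68 and 9.40 in DMM arrays. It fell by 0.98 (SE 0.14, adjusted p = 0.00393), and the call held in all 6 fits without 1 array. The groups did not overlap, as for 13.4% of all probes with the DMM arrays below. At 4 and 8 weeks *Gas1* gave -0.54 and -0.45 (adjusted p = 0.202 and 0.509). *Smo* read 7.81, 7.33 and 7.70 in contralateral arrays and 6.47, 6.82 and 6.89 in DMM arrays of week 2, also without overlap. It fell by 0.88 (SE 0.17, adjusted p = 0.0124), a call of 1 of its 4 probes, of which all 4 pointed down. That call ended without DMM replicate 1 (adjusted p = 0.0570) or 2 (0.0529). *Boc* fell by 0.62 (SE 0.16, adjusted p = 0.0471). Its call ended without contralateral replicate 1 (0.113) or 2 (0.0843) and without DMM replicate 1 (0.138), 2 (0.173) or 3 (0.138).

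The ligand gene *Ihh* had arrays from 6.12 to 6.45 in contralateral and from 5.98 to 6.30 in DMM cartilage at 2 weeks, which overlap. Its differences were -0.18, -0.28 and -0.43 at 2, 4 and 8 weeks (adjusted p = 0.524, 0.526 and 0.532). Averaged over the weeks it was lower by -0.29 (SE 0.09, adjusted p = 0.0481). That call held only in the fits without replicate 1 of either group at weeks 2 and 4 or without contralateral replicate 2 of week 8, and ended in the other 13, with adjusted p up to 0.102. It also ended with an intensity trend and robust variances (0.0513). *Dhh*, the gene of desert hedgehog, gave 0.10, 0.04 and -0.53 (adjusted p = 0.722, 0.943 and 0.523). *Hhip*, whose product binds and sequesters the ligands, gave 0.22 at 2 weeks (adjusted p = 0.572). *Sufu*, the gene of an inhibitor that retains Gli proteins in the cytoplasm, gave 0.38 (adjusted p = 0.177).

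Of the other Gli factors, *Gli2*, the main activator upstream of *Gli1*, gave -0.44 at 2 weeks (adjusted p = 0.0712) and averaged -0.42 over the weeks (SE 0.12, adjusted p = 0.0245). The averaged call ended without DMM replicate 3 of week 2 (0.0561), contralateral replicate 1 of week 4 (0.0517) or DMM replicate 3 of week 4 (0.0557). *Gli3*, which acts mostly as a repressor, gave 0.38 at 2 weeks (adjusted p = 0.145). *Kif7*, a ciliary kinesin of the pathway, gave -0.94 at 2 weeks (SE 0.34, adjusted p = 0.138), with contralateral arrays spread from 6.21 to 8.02. In DMM cartilage *Kif7* was 1.10 higher at week 8 than at week 2 (adjusted p = 0.0225).

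**Figure D3:**
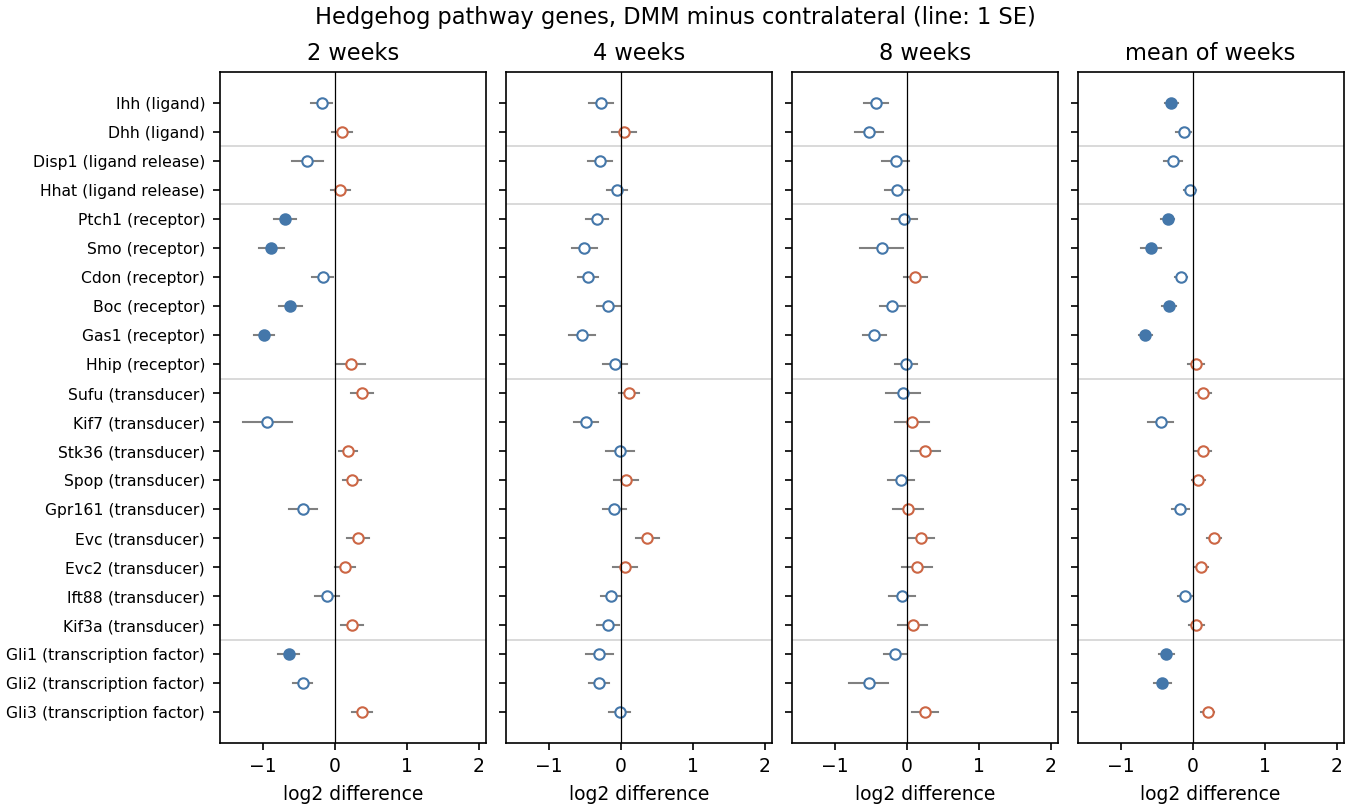
log2 difference, DMM minus contralateral (horizontal axes), of the 22 measured Hedgehog pathway genes, ordered by role, at each week and averaged over the weeks. Points are estimates for the brightest probe with 1 SE as a line, orange above 0 and blue below it, filled where the adjusted p was under 0.05. The filled points at 2 weeks are *Ptch1*, *Smo*, *Boc*, *Gas1* and *Gli1*, all below 0.

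Among 10 genes analysed of 15 listed as Hedgehog targets, *Ptch1* and *Gli1* fell at 2 weeks and 0 of the other 8 passed in either direction. Among the 8 were *Cdkn1c*, which encodes an inhibitor of cyclin-dependent kinases (0.51, SE 0.15, adjusted p = 0.0634), the cyclin genes *Ccnd1* (0.43, adjusted p = 0.0932) and *Ccnd2* (0.16, adjusted p = 0.572) and the forkhead genes *Foxc1* (0.22, adjusted p = 0.614), *Foxc2* (0.17, 0.537), *Foxf1* (0.01, 0.981) and *Foxf2* (0.23, 0.455). All 8 had positive differences, and the median of the 10 was 0.20. With an intensity trend and robust variances, or with only the brighter probes tested, 1 target rose at 2 weeks. Averaged over the weeks 2 targets fell, *Ptch1* and *Gli1*, and 1 rose, *Cdkn1c* (0.38, SE 0.12, adjusted p = 0.0479), where 5.04% and 6.07% of all genes did. The averaged call of *Cdkn1c* ended in 13 of 18 fits without 1 array, with adjusted p up to 0.1002, and held without contralateral replicate 3 or DMM replicate 2 of week 2, contralateral replicate 2 of week 4, or contralateral replicate 3 or DMM replicate 1 of week 8. The count that fell was 1 without contralateral replicate 2 of week 2 or 3 of week 4, and 0 without DMM replicate 2 of week 2 or 3 of week 4. *Pthlh*, a target in the growth plate that encodes the ligand of *Pth1r*, was not analysed here.

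Of 31 genes listed for PTHrP signalling 26 were measured. *Pth1r* rose at 2 and at 4 weeks, where 4.07% and 0.452% of all genes rose, and 0 of the other 25 passed in either direction at any week. The median difference at 2 weeks was 0.09. The downstream genes included *Gnas*, which encodes the stimulatory G protein subunit the receptor couples to (0.26 at 2 weeks, adjusted p = 0.300), *Prkaca*, a catalytic subunit of protein kinase A (0.19, 0.522), and *Hdac4*, a histone deacetylase that restrains hypertrophy (-0.05, 0.898). Averaged over the weeks 3 rose and 0 fell, where 6.07% of all genes rose. Besides *Pth1r* they were *Ramp2*, the gene of a receptor activity-modifying protein (0.39, SE 0.10, adjusted p = 0.0212), and *Slc9a3r1*, the gene of a scaffold that binds the tail of the receptor (0.49, SE 0.14, adjusted p = 0.0326), both named after their values were seen. The call of *Ramp2* ended without DMM replicate 2 of week 2 (0.0510). That of *Slc9a3r1* ended in 9 of 18 fits without 1 array, with adjusted p up to 0.0636 (any DMM array or contralateral replicate 2 of week 2, replicate 2 or 3 of either group at week 4, and DMM replicate 2 of week 8). Within DMM cartilage *Arrb2* (1.13) and *Prkar2b* (0.98) were higher at week 4 than at week 2 (adjusted p = 0.00295 and 0.00432). *Arrb2* encodes a beta-arrestin and *Prkar2b* a regulatory subunit of protein kinase A. In the same comparison of weeks 7 of 8 neutrophil, 3 of 3 erythroid and 11 of 13 muscle markers were called higher too.

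Of 38 genes listed for chondrocyte maturation 30 were measured, and at 2 weeks 5 rose and 2 fell, where 4.07% and 3.16% of all genes did. Of the 28 that are not members 3 rose and 2 fell. The median difference was -0.09. Besides *Pth1r* and *Panx3*, *Bmp4* rose by 0.74 (SE 0.16, adjusted p = 0.0197), *Mmp13* by 0.72 (SE 0.18, adjusted p = 0.0338) and *Stc1* by 0.72 (SE 0.13, adjusted p = 0.0107). *Bmp4* encodes a bone morphogenetic protein, *Mmp13* the collagenase of hypertrophic chondrocytes and osteoarthritic cartilage, and *Stc1* the hormone stanniocalcin 1. *Slc20a1*, the gene of a phosphate transporter, fell by 0.91 (SE 0.14, adjusted p = 0.00431) and *Bmp6*, a bone morphogenetic protein of hypertrophic chondrocytes, by 0.66 (SE 0.15, adjusted p = 0.0242). The call of *Bmp4* ended without any of DMM replicates 1 to 3 (adjusted p between 0.0727 and 0.102) in 1 fit of all 18 arrays (0.109), and with the mean of its probes (0.42, adjusted p = 0.101). That of *Mmp13* ended without contralateral replicate 3 (0.0631) and DMM replicates 1 to 3 (between 0.0926 and 0.152) and with the mean of its probes (0.0611), and that of *Stc1* without DMM replicate 3 (0.0716) and in 1 fit of all 18 arrays (0.0505). That of *Bmp6* ended without contralateral replicate 3 (0.0570) and DMM replicates 1 to 3 (between 0.0625 and 0.122), while *Slc20a1* was called in all 6 fits without 1 array.

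*Col10a1*, the collagen gene that defines hypertrophic chondrocytes, read 11.11, 10.95 and 11.38 in contralateral and 10.96, 10.52 and 10.76 in DMM arrays of week 2. The groups overlapped slightly, and the difference was -0.40 (SE 0.16, adjusted p = 0.181). It was -0.42 at 4 weeks (adjusted p = 0.417) and 0.34 at 8 weeks (adjusted p = 0.630). *Sox9*, the master transcription factor of chondrocytes, gave -0.15, -0.19 and -0.05 (adjusted p = 0.565, 0.677 and 0.950). *Runx2*, the factor that drives hypertrophy, was not analysed here. At 4 weeks 1 of the 30 genes passed (*Pth1r*) and at 8 weeks 0. In DMM cartilage *Mmp13* fell by 1.15 from week 2 to week 8 (adjusted p = 0.0166). Averaged over the weeks 6 rose and 6 fell, where 6.07% and 5.04% of all genes did. Of the 28 that are not members 4 rose and 6 fell. The averaged count that fell was 3 without contralateral replicate 3 or DMM replicate 2 or 3 of week 2. It was also 3 without DMM replicate 3 of week 4, or replicate 1 of either group at week 8. The count that rose at 2 weeks was 2, 3 and 1 without DMM replicates 1, 2 and 3, and the count that fell was 1 without DMM replicate 2 or 3 and 4 without contralateral replicate 2.

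Of 15 pannexin and connexin genes 7 were measured, and at 2 weeks 3 rose and 1 fell, where 4.07% and 3.16% of all genes did. Of the 6 beside *Panx3* 2 rose and 1 fell. The median difference was 0.53. *Panx1*, which encodes a widely expressed pannexin, read 6.34, 6.34 and 6.25 in contralateral and 6.82, 6.87 and 6.83 in DMM arrays and rose by 0.53 (SE 0.12, adjusted p = 0.0279, 1 of 2 probes). *Gja1*, the gene of a gap junction protein common in bone and cartilage cells, rose by 0.76 (SE 0.17, adjusted p = 0.0220). *Gjc3*, the gene of another connexin, fell by 1.12 (SE 0.18, adjusted p = 0.00617). At 8 weeks, where *Panx3* gave -0.20, *Gja1* read 10.73, 10.69 and 10.81 in contralateral and 11.40, 11.31 and 11.23 in DMM arrays (0.57, SE 0.14, adjusted p = 0.412). Without any 1 of the DMM arrays 1 gene of the list rose. The call of *Gja1* ended without DMM replicate 1 (0.0594), 2 (0.0862) or 3 (0.117). That of *Panx1* ended without contralateral replicate 1 (0.0519) or 3 (0.0560) and without DMM replicate 1 (0.0862), 2 (0.120) or 3 (0.119), and with the mean of its probes (0.36, adjusted p = 0.0903). *Panx2* was not analysed here.

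**Figure D4:**
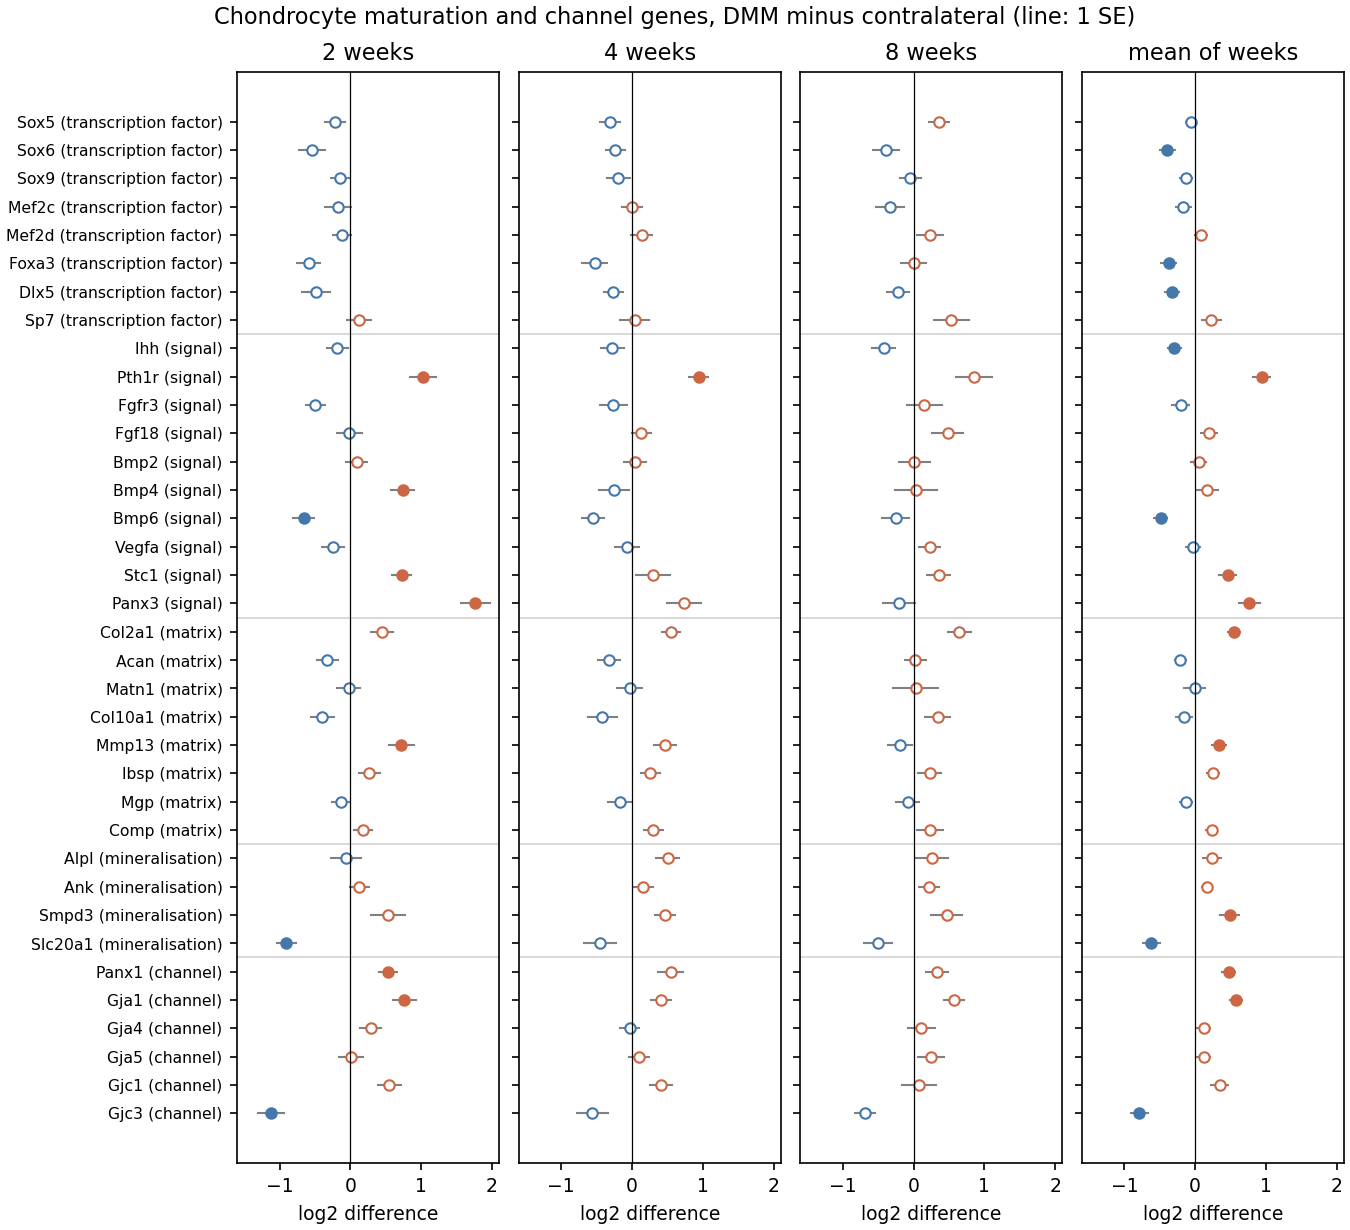
log2 difference, DMM minus contralateral (horizontal axes), of 30 measured genes of chondrocyte maturation and of the 6 measured pannexin and connexin genes beside *Panx3*, which stands in the first list. Points are estimates for the brightest probe with 1 SE as a line, orange above 0 and blue below it, filled where the adjusted p was under 0.05. At 2 weeks *Panx3* lies at 1.77, to the right of every other gene, while *Col10a1* and *Sox9* are open points below 0.

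The samples were checked against markers of cartilage and of tissues around it. Of 19 chondrocyte markers 17 were measured, among them *Col2a1*, *Acan* and *Sox9*, and their mean log2 intensity ran from 9.49 to 10.07 over the 18 arrays. At 2 weeks 1 of them rose (*Col9a1*, 1.66, adjusted p = 0.0104) and 4 fell. Of the 17 markers 13 had negative differences, with a median of -0.20 over the list. Their mean level was 9.86 to 10.07 in contralateral and 9.49 to 9.91 in DMM arrays. *Ptch1* correlated with that level at r = 0.82 over the 18 arrays and at r = 0.78 after group means were removed, and *Gli1* at r = 0.27 and -0.02, as descriptions. Of 13 skeletal muscle markers 12 fell at 2 weeks, from 7.85 to 8.71 in contralateral to 5.99 to 6.77 in DMM arrays, and 11 fell at 4 weeks. Of 6 measured adipocyte markers 2 fell at 2 weeks, from 7.06 to 9.64 in contralateral to 6.56 to 6.87 in DMM arrays. *Gli1* correlated with their level at r = 0.51, and at 0.49 after group means were removed, and *Ptch1* at 0.31 and -0.16. With erythroid and neutrophil markers *Gli1* gave 0.28 and 0.30, and 0.49 and 0.45 after group means were removed. *Ptch1* gave -0.74, -0.75 and -0.69 with fibroblast and synovium, macrophage and endothelium markers. Without group means these were -0.35, -0.40 and -0.58. The part of these cell types in the fall of *Ptch1* and *Gli1* was not tested.

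All 12 markers of fibroblasts and synovium were measured, and 9 rose at 2 weeks and 3 at 4 weeks, with 0 falling and 0 called at 8 weeks. Their mean level was 8.44 to 9.14 in contralateral and 9.82 to 9.96 in DMM arrays at 2 weeks. It was 8.30 to 8.94 and 9.19 to 9.70 at 4 weeks, and 8.71 to 8.92 and 9.13 to 9.57 at 8 weeks. The levels were apart at every week, as was the brightest probe of *Pth1r* but not its other probes. *Pth1r* correlated with the fibroblast and synovium level at r = 0.87 over the 18 arrays and at r = 0.36 after group means were removed. It correlated with macrophage markers at 0.75 and 0.27, endothelium markers at 0.68 and 0.34, and skeletal muscle markers at -0.61 and 0.19. *Panx3* correlated with the fibroblast and synovium level at 0.64 and -0.16. With macrophage, endothelium and skeletal muscle markers *Panx3* gave 0.53, 0.53 and -0.64 over the 18 arrays. With the level of 7 measured osteoclast markers it correlated at 0.66 and 0.32. Of these 7 markers 1 rose at 2 weeks, at levels of 6.41 to 6.51 in contralateral and 6.69 to 7.08 in DMM arrays. Their levels overlapped at 4 and 8 weeks. Of 9 macrophage markers 3 rose at 2 weeks, at levels of 7.35 to 7.75 and 8.06 to 8.37. The 11 measured markers of osteoblasts and osteocytes, cells that also carry *Pth1r* and *Panx3*, held 0 that rose and 1 that fell at 2 weeks (*Sost*, -1.28, adjusted p = 0.00592), at overlapping levels of 8.65 to 8.84 and 8.38 to 8.81. *Pth1r* correlated with their level at r = 0.29, and at r = 0.77 after group means were removed, and *Panx3* at -0.15 and 0.36. The part of these cell types in the rise of *Pth1r* and *Panx3* was not tested.

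**Figure D5:**
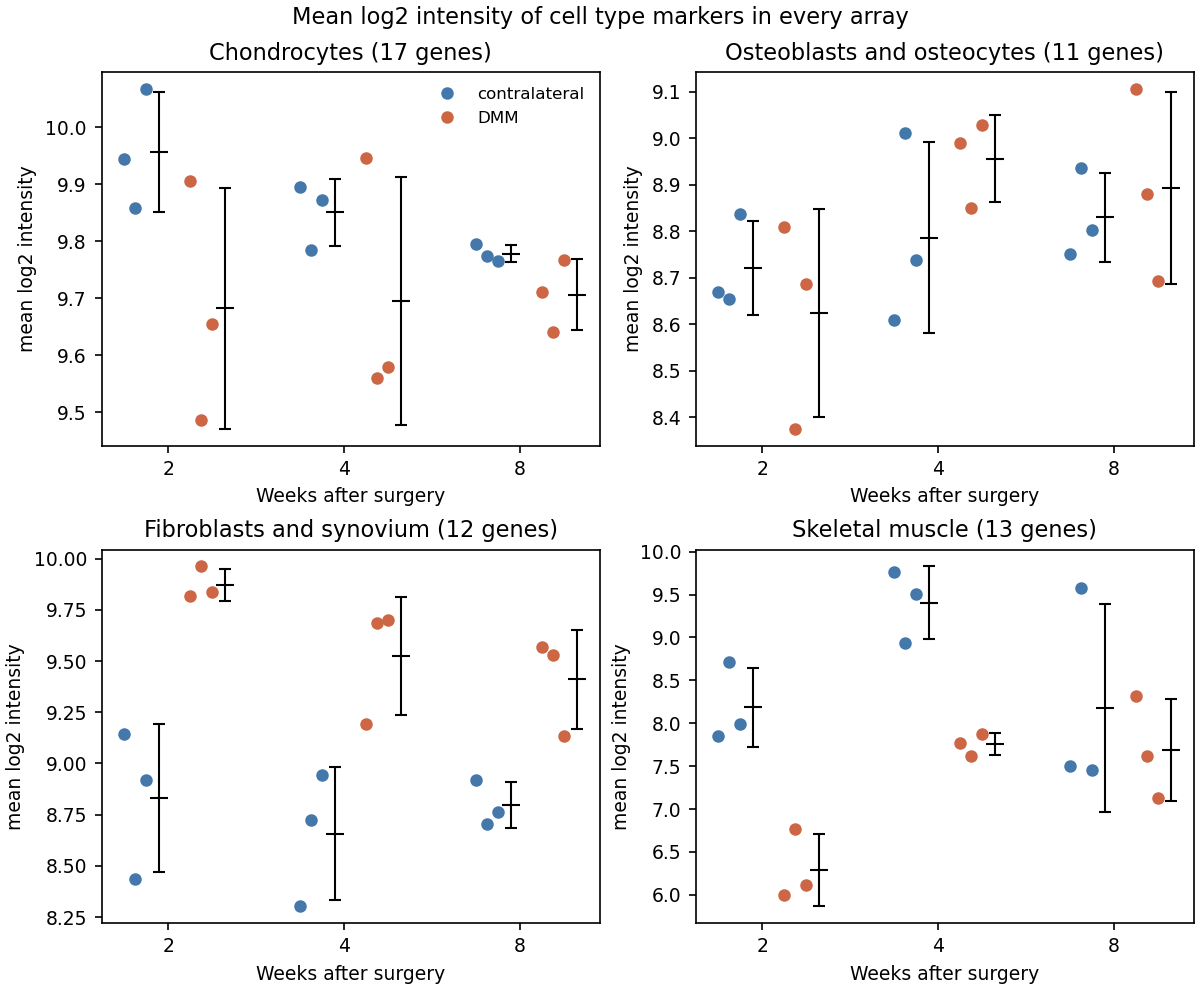
Mean log2 intensity (vertical axes) of markers of chondrocytes, osteoblasts and osteocytes, fibroblasts and synovium, and skeletal muscle at 2, 4 and 8 weeks after surgery. Each point is 1 array, blue for contralateral and orange for DMM cartilage, and the bars give the mean and SD of 3 arrays. The fibroblast and synovium markers lie higher in DMM arrays at each week, while the osteoblast and osteocyte markers overlap at 2 weeks (8.65 to 8.84 against 8.38 to 8.81).

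The genes whose pattern over the 18 arrays was most like each member were taken as the 5 with the highest Pearson r among 11498 other genes, each by its brightest probe. For *Ptch1* they were *Chst3*, *Bcl6*, *Stc2*, *Wif1* and *Ppp1r3c*, with r from 0.93 to 0.89, and after removal of group means these still correlated at 0.67 to 0.84. All 5 fell at 2 weeks, *Chst3* with a difference of -0.73 (adjusted p = 0.0108) and *Ppp1r3c* of -1.47 (adjusted p = 0.00132). For *Gli1* they were *Dnal4*, *4931428F04Rik*, *Vamp2*, *Anxa7* and *Gng7*, with r from 0.88 to 0.80, and 0.18 to 0.58 without group means. For *Pth1r* they were *Olfml3*, *Rarres1*, *Pcolce*, *Tspan2* and *Fap*, with r from 0.92 to 0.90, all of which rose at 2 weeks, *Olfml3* by 1.18 (adjusted p = 0.00164). *Fap* also stands among the fibroblast markers. For *Panx3* they were *Col16a1*, *Chsy1*, *Cdr2l*, *Msn* and *Rai14*, with r from 0.89 to 0.83, of which *Col16a1* rose by 1.34 at 2 weeks (adjusted p = 0.00726). Among the members themselves *Gli1* and *Panx3* correlated at r = -0.79 (-0.53 without group means) and *Ptch1* and *Gli1* at r = 0.50 (-0.19 without group means). These correlations are over arrays that all genes share and carry no test. The likest genes were picked on the same arrays with group differences included. That they rose or fell with their member at 2 weeks therefore follows in large part from the choice.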

How the data were processed

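RNA from pooled cartilage was amplified, labelled with biotin and hybridised to Illumina Mouse WG-6 v2.0 BeadChips. The authors deposited log2 intensities of 22999 probes, quantile-normalised over all 18 arrays; their notes name lumi 2.8.0 and R 2.15.0, and the log base is not given in the sources used here. All arrays spanned 4.62 to 14.67, with medians of 6.55 to 6.56, the range of a log2 scale. A further table, of raw signals with their detection p-values, was left out because its 36 columns match no label, so whether a probe lay above background was not assessed.

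Groups were compared in R 4.3.3 with limma 3.58.1 and statmod 1.5.0, in fits of the 6 arrays compared for weekly contrasts and of all 18 arrays for the averaged effect and its change between weeks. P-values were two-sided and adjusted by Benjamini-Hochberg over all probes (threshold 0.05). The pipeline was tested on simulated arrays. Which pools share mice is not stated, so arrays were compared as unpaired; p-values measure only the spread between pools, and 3 arrays per group limit their precision. The annotation gave 1 gene to 18998 probes, several to 6, and did not list 3995.

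The members and lists were chosen with earlier results of these data known. Named were all member probes, the 5 likest genes of each, up to 6 genes a direction called in any weekly comparison from each pathway list, a fixed set of ligands, receptors, Gli factors and maturation genes, and up to 2 called markers a direction. Calls were repeated with each array left out and under 8 other settings. Figures used matplotlib 3.10.9 in Python 3.11.15.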

Additional observations from a re-analysis of the deposited data

How the results depend on the processing

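In the comparisons of DMM with contralateral cartilage, no member called in the main analysis changed direction under any setting. *Panx3* at 2 weeks, all averaged calls but that of *Gli1*, and the calls of *Ptch1* and *Gli1* at 2 weeks held under every setting other than leaving out arrays. With the mean of all probes *Pth1r* gave 0.72 (adjusted p = 0.0655) at 2 weeks and 0.58 (0.0731) at 4 weeks, and in 1 fit of all 18 arrays 0.94 (0.0773) at 4 weeks. With the replicate number as a block *Gli1* averaged -0.37 (adjusted p = 0.0581), the only call by a member's brightest probe in these comparisons that the block ended. It also ended the averaged calls of *Ihh* (0.103), *Boc* (0.0652) and *Mmp13* (0.0538) and those of *Boc* (0.0650) and *Panx1* (0.0549) at 2 weeks. With the block the averaged count of lower genes was 4 for the Hedgehog pathway, 1 for its targets and 3 for chondrocyte maturation, from 7, 2 and 6. Whether the numbers pair the pools is not stated. Arrays of the same number and week correlated at -0.10 to 0.13 in their deviations from group means, and 4 of 9 DMM arrays correlated best with their own number. With 3 arrays per group such correlations cannot show whether pools share mice.

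With 1 array left out, differences ran from -0.79 to -0.58 for *Ptch1*, -0.74 to -0.54 for *Gli1* and 0.89 to 1.22 for *Pth1r* at 2 weeks, and from 0.89 to 1.00 for *Pth1r* at 4 weeks. *Ptch1* at 8 weeks, which was not called, ran from -0.14 to 0.06, being 0.02 and 0.03 without contralateral replicates 1 and 2 and 0.0587 without DMM replicate 1. Averaged over weeks, *Ptch1* ran from -0.39 to -0.31 and *Gli1* from -0.42 to -0.31. For further probes of members, other named genes and the remaining member comparisons, settings that kept all arrays ended 18 calls, added 3 and reversed 0.

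Counts of called probes moved more. The fit of all 18 arrays gave 36 at 4 weeks, 112 at 8 weeks, 203 (week 4 against 2), 6 (week 8 against 4) within DMM, and 1 (week 4 against 2) and 6 (week 8 against 4) within contralateral cartilage. An intensity trend with robust variances gave 316 at 4 weeks and 4 at 8 weeks, 246 (week 8 against 2) and 43 (week 8 against 4) within DMM, and 52 (week 4 against 2) within contralateral cartilage. The block gave 341 at 4 weeks. Array weights gave 236 and 35 within DMM (week 8 against 2 and against 4) and 70 within contralateral cartilage (week 4 against 2). Probes above the median intensity gave 3 at 8 weeks and 257 and 27 within DMM (week 8 against 2 and against 4). Leaving out 1 array gave 390 to 1574 probes at 2 weeks (fewest without DMM replicate 2), 50 to 192 at 4 weeks (fewest without DMM replicate 3) and 0 to 1 at 8 weeks. Within DMM it gave 313 to 600 (week 4 against 2), 1 to 202 (week 8 against 2) and 0 to 95 (week 8 against 4), and within contralateral cartilage 0 to 70, 0 to 1 and 0 to 21. For the change of the effect it gave 0 to 3 from week 2 to 8 and 0 to 3 from week 4 to 8. The cause was not tested.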
